A study of Mus musculus with 24 samples.

Results

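Connexins and pannexins are the channel proteins that join cells to each other or open them to the outside, and 10 of them were followed here in 2 thalamic nuclei of newborn mice: Gja1, Gja4, Gja5, Gjb1, Gjb2, Gjb6, Gjc1 and Gjd2 among the connexins, and Panx1 and Panx2. They were taken as the probe sets whose annotated gene symbol is one of these names, which gave 18 of the 45101 probe sets on the array and 10 of the 18194 genes that had a probe set of their own. RNA was measured on 24 Affymetrix arrays, 1 per sample, in the VB (the ventrobasal complex, the somatosensory relay nucleus) and in the dLGN (the dorsal lateral geniculate nucleus, the visual relay nucleus). All mice were wild type on a C57BL/6 background; embBE pups had lost both eyes by cauterization in utero, and controls kept theirs. Nuclei were taken on the day of birth (P0) and at P4. Each group had 3 arrays, apart from dLGN P0 control with 2 and dLGN P0 embBE with 4. Each sample pooled nuclei dissected from pups of the same litter and condition, so the spread between arrays is between pools and no value belongs to a single animal.

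Connexins assemble into hemichannels, and hemichannels of neighbouring cells dock to form a gap junction through which ions and small molecules pass. In young brain tissue, gap junctions couple neurons and astrocytes during spontaneous activity that travels as waves, and the study asked how such activity links thalamic nuclei. Pannexins form channels of a similar shape that mostly stay undocked and release ATP. Gja1 (Cx43) and Gjb6 (Cx30) are the main connexins of astrocytes, Gjb2 (Cx26) is found in astrocytes and meninges, Gjd2 (Cx36) is the principal connexin of neurons, Gjc1 (Cx45) is shared by young neurons and vascular cells, Gja4 (Cx37) and Gja5 (Cx40) belong to vessels, and Gjb1 (Cx32) to oligodendrocytes.

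The 250 bases before the transcription start of Gja1 and Gjb6 are shown because both genes rose with age in the VB. They were read from RefSeq on GRCm38.p6, where 8 of the 10 genes had an entry, and are printed 5′ to 3′ on the strand of the gene, chr10:56377050-56377299 on the plus strand for Gja1 and chr14:57133612-57133861 on the minus strand for Gjb6. Capitals mark matches to the AP-1 motif TGANTCA, the TATA box TATAAA, the GC box GGGCGG or the CCAAT box CCAAT, searched on both strands, with no overlap between matches.
Gja1: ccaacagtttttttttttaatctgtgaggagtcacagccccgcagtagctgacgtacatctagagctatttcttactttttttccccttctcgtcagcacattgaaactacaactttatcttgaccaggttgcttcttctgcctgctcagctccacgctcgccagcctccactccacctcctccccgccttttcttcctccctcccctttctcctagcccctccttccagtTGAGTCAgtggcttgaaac
Gjb6: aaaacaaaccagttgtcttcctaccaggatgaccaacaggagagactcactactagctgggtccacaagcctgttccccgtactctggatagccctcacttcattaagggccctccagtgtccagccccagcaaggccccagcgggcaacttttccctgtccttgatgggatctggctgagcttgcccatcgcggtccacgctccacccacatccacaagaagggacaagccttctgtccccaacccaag
The Gja1 window held 1 match, to TGANTCA, that began 19 bases before the start. Of the 32851 promoter windows of the same length, 6.7% held that motif, 12.4% TATAAA, 32.7% GGGCGG and 33.8% CCAAT. The Gjb6 window held none of the 4 motifs. Gjb6 and Gjb2 lie next to each other in the same orientation on chromosome 14, with starts 28.9 kb apart.

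The values were log2 signals, so a difference of 1 is a doubling of signal. RMA, the method used, sets the signals of single probes to the same distribution on all arrays and then combines them into probe sets. The SD over probe sets still differed between arrays, from 2.16 to 2.42. Each probe set has its own affinity, so tests compared samples on the same probe set, and the ranks by mean signal given here say how bright a probe set was and not how abundant its transcript was. Where a gene had several probe sets, that with the highest mean stood for it. By that mean, Gja1 ranked above the probe sets of 96.9% of all genes, Gjc1 above 89.2%, Gjd2 above 85.7% and Panx1 above 78.9%, Gja4 and Panx2 lay near the middle at 41.6% and 39.8%, and Gjb2, Gjb1, Gja5 and Gjb6 lay low at 26.6%, 24.7%, 15.9% and 6.7%. No detection call was used, and signals as low as those of Gjb6 may hold background.

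Several arrays stood apart. The SD over all probe sets was narrow and the actin gap, the signal of actin's 3′ probe set minus that of its 5′ probe set and a measure of RNA length, was wide on the VB P0 control array labelled 35_1 (SD 2.22, gap 4.29 on the log2 scale) and on VB P4 control 36_3 (2.26 and 3.14), against SDs of 2.33 to 2.42 and gaps of 1.95 to 2.98 on the other VB arrays. In the dLGN the SD ran from 2.16 to 2.41 and the gap from 2.21 to 4.27. On embBE arrays the gaps of the nuclei did not overlap. They were 2.25 to 2.55 in the VB and 3.065 to 4.27 in the dLGN at P0, and 1.98 to 2.05 and 3.33 to 3.94 at P4. Both P0 control arrays labelled 39_5 were high in genes of GABAergic neurons: Gad1 stood at 9.97 in the VB, against 4.20 to 5.21 on the other VB P0 arrays, and at 9.51 in the dLGN, against 6.01 to 8.26. Of the 5 relay neuron markers, Tcf7l2, Slc17a6, Rora and Lef1 had bright probe sets (ranks of 97.9%, 97.8%, 95.8% and 85.5% by mean signal) and Gbx2 a dimmer one (44.8%), and the mean over the list was 10.06 to 11.38 on every array. The 3 choroid plexus markers ranked at 19.8% to 46.0%, with a mean over the list of 5.72 to 6.37 on every array.

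**Figure D1:**
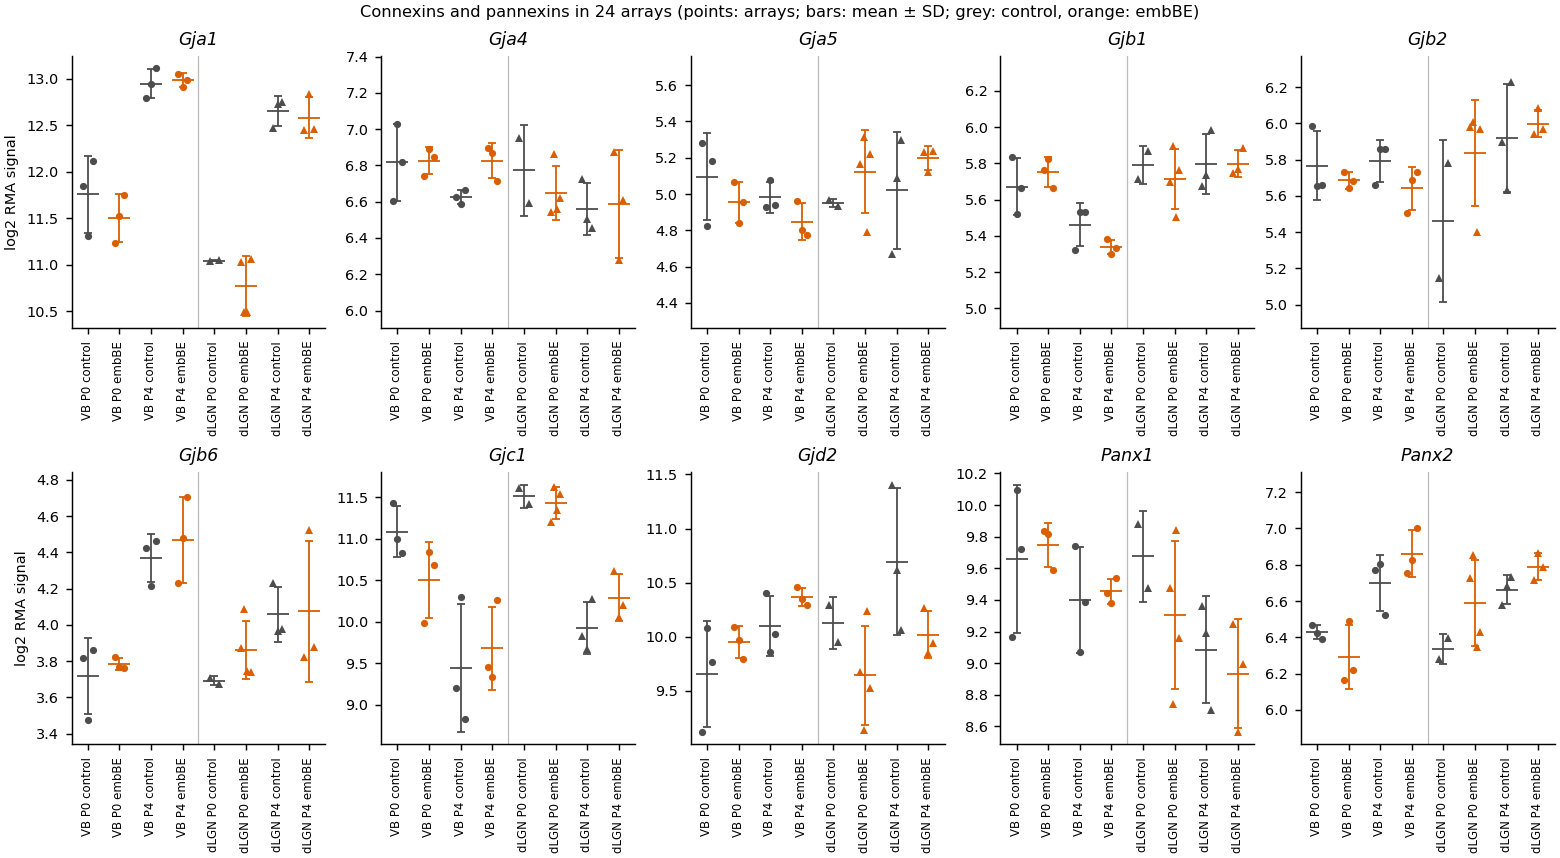
Log2 RMA signal of the 10 genes on each of the 24 arrays, by nucleus, age and treatment, with the mean ± SD of each group; circles are VB arrays, triangles dLGN arrays, grey control and orange embBE, and each panel has its own vertical scale. Gja1 rises from P0 (10.49 to 12.12) to P4 (12.45 to 13.11) in every group, Gjc1 has lower means at P4 on this probe set, and grey and orange points of the same nucleus and age mostly overlap.

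Age was the contrast in which these genes differed most. Gja1 rose from P0 to P4 in both nuclei and both treatments, Gjb6 rose in the VB of control and embBE pups, and Panx2 rose in the VB of embBE pups. Gjc1 fell in VB controls and in both dLGN groups on its brighter probe set. At an adjusted p under 0.05 (limma, Benjamini-Hochberg over 18194 genes), 2 of the 10 genes were higher and 1 lower at P4 in VB controls, 3 higher and 0 lower in VB embBE, and 1 higher and 1 lower in each of the dLGN groups. Among all genes, the share called higher at P4 was 2.32% in VB controls, 2.69% in VB embBE, 0.253% in dLGN controls and 0.632% in dLGN embBE, and the share called lower was 1.45%, 0.731%, 0.308% and 0.39%. The median log2 change of the 10 genes was -0.04, -0.02, 0.20 and 0.12 in the same order, and that of all genes -0.03, -0.04, 0.04 and 0.01.

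Gja1, the connexin through which astrocytes are coupled, had the largest increase. Its log2 signal in VB controls was 11.85, 11.31 and 12.12 at P0 and 12.79, 12.94 and 13.11 at P4, and in VB embBE pups 11.24, 11.52 and 11.75 at P0 and 13.06, 12.92 and 12.99 at P4. In the dLGN, controls stood at 11.04 and 11.05 at P0 and at 12.47, 12.74 and 12.76 at P4, and embBE arrays at 11.03, 10.50, 10.49 and 11.06 at P0 and at 12.45, 12.84 and 12.46 at P4. Every P4 array lay above every P0 array of its own nucleus and treatment, and the lowest P4 value of all, 12.45, was above the highest P0 value, 12.12. The increase was 2.29-fold in VB controls (log2 1.19, SE 0.19, adjusted p = 0.00551, limma), 2.80-fold in VB embBE (1.49, SE 0.19, adjusted p = 0.00154), 3.05-fold in dLGN controls (1.61, SE 0.21, adjusted p = 0.0094) and 3.51-fold in dLGN embBE (1.81, SE 0.17, adjusted p = 0.000906). By p, it was gene 3 of 18194 in the last of these comparisons and gene 9 in dLGN controls. The dLGN control call was lost without P4 array 36_3 (adjusted p = 0.0579) and without P0 array 35_1 or 39_5 (0.124 and 0.139), with log2 changes of 1.57 to 1.61. Leaving out a P0 array leaves 1 control there, which the fit assumes to vary like the arrays of the other dLGN groups.

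Gja1 has 6 probe sets, and all of them were higher at P4 in all 4 groups. The brightest, which stood for the gene, was 1437992_x_at. The suffix x, absent only from 1415800_at and 1415801_at, marks a probe set that may take up related transcripts. The 3 next in brightness (1438945_x_at, 1438650_x_at and 1415800_at) gave log2 changes of 1.12 to 2.64, and passed the test in every group except 1415800_at in dLGN controls (1.77, SE 0.51, adjusted p = 0.198). The 2 dimmest (1438973_x_at and 1415801_at), at mean signals of 5.69 and 5.56, gave smaller changes of 0.46 to 0.90, and of these only 1438973_x_at passed, in both dLGN groups (adjusted p = 0.0434 in controls and 0.0439 in embBE). The order of the 8 group means on the brightest probe set was VB P4 embBE (12.99 ± 0.07, SD, n = 3), VB P4 control (12.95 ± 0.16), dLGN P4 control (12.65 ± 0.16), dLGN P4 embBE (12.58 ± 0.22), VB P0 control (11.76 ± 0.41), VB P0 embBE (11.50 ± 0.26), dLGN P0 control (11.04 ± 0.00, n = 2) and dLGN P0 embBE (10.77 ± 0.32, n = 4). Within each nucleus and age the ranges of embBE and control arrays overlapped. All VB arrays lay above the dLGN arrays of the same age, except that dLGN P4 embBE reached 12.84 and VB P4 control went down to 12.79.

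Other genes of astrocytes rose over the same days. Of 10 markers of astrocytes and radial glia, 4 rose in VB controls and the same 4 in VB embBE, with Aqp4, the water channel of astrocyte endfeet, up by 3.72 and 3.91 (SE 0.41 in both), the calcium-binding protein S100b up by 2.91 and 3.33 (SE 0.23), Fgfr3 and Slc1a2. The median log2 change of the 10 was 0.75 in VB controls, 0.92 in VB embBE, 0.32 in dLGN controls and 0.73 in dLGN embBE, against the medians of all genes given before. In the dLGN, 0 of the 10 rose in controls and 2 in embBE pups, S100b by 2.55 (SE 0.35) and Fgfr3 by 0.75 (SE 0.13). The mean log2 signal over the 10 markers was 8.13 to 8.70 at P0 and 9.19 to 9.59 at P4 on VB arrays, and 7.86 to 8.59 and 8.83 to 9.35 on dLGN arrays. In pieces of tissue, more cells of a type and more RNA in each cell cannot be told apart, and the part of astrocyte number in the Gja1 values was not tested.

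Gjb6, the other main astrocyte connexin, was dim but rose in the VB. Its log2 signal was 3.82, 3.48 and 3.86 in VB controls at P0 and 4.42, 4.22 and 4.46 at P4, and 3.82, 3.77 and 3.76 in VB embBE pups at P0 and 4.23, 4.48 and 4.70 at P4. The groups did not overlap in age in either treatment. The increase was 1.57-fold in controls (log2 0.65, SE 0.14, adjusted p = 0.0242, limma) and 1.61-fold in embBE (0.69, SE 0.14, adjusted p = 0.0188). In the dLGN the differences were 0.37 (SE 0.20, adjusted p = 0.641) in controls and 0.21 (SE 0.17, adjusted p = 0.741) in embBE pups, and array 36_2 at P4 held the highest dLGN value, 4.52. The calls are fragile: that in controls was lost without P0 array 35_2 or P4 array 24_2 or 40_1 (adjusted p = 0.0521 to 0.112), and that in embBE without any 1 of 35_3, 39_3, 39_4, 36_2 and 40_3 (0.0572 to 0.0858), with log2 changes of 0.53 to 0.71.

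Gjb2, whose gene neighbours that of Gjb6, did not pass the age test in any group. Its log2 difference between P4 and P0 was 0.03 in VB controls, -0.04 in VB embBE, 0.46 (SE 0.24) in dLGN controls and 0.16 in dLGN embBE, with adjusted p of 0.599 to 0.936. The dLGN control value rests on P0 arrays of 5.15 and 5.78 that lie far apart.

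Gjc1, one of the connexins of young neurons, fell with age on its brighter probe set (1447787_x_at). Signals in VB controls were 11.43, 11.00 and 10.83 at P0 and 9.20, 10.30 and 8.82 at P4, and in dLGN controls 11.61 and 11.41 at P0 and 9.82, 9.67 and 10.28 at P4. In dLGN embBE pups they were 11.20, 11.63, 11.35 and 11.54 at P0 and 10.61, 10.06 and 10.21 at P4. All P4 arrays of these 3 groups lay below all P0 arrays. The decrease was 3.13-fold in VB controls (log2 -1.65, SE 0.36, adjusted p = 0.0256, limma), 3.01-fold in dLGN controls (-1.59, SE 0.21, adjusted p = 0.00974) and 2.20-fold in dLGN embBE (-1.14, SE 0.18, adjusted p = 0.0116). In VB embBE pups, with 9.99, 10.83 and 10.69 at P0 and 9.45, 9.34 and 10.26 at P4, the difference was -0.82 (SE 0.36, adjusted p = 0.267) and the ranges overlapped.

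The other probe set of Gjc1 (1449094_at) did not show a change of that size. Its log2 differences were -0.19, -0.34, -0.37 and -0.16 in VB control, VB embBE, dLGN control and dLGN embBE (SE 0.16 to 0.20, adjusted p = 0.318 to 0.84), and its signal stayed between 8.95 and 9.98 over all 24 arrays. The suffix x marks a probe set that may take up related transcripts, and which of the 2 follows Gjc1 was not tested. The calls on the brighter probe set were lost without 35_1, 24_2 or 40_1 in VB controls (adjusted p = 0.0742 to 0.122), without 35_1, 39_5 or 36_3 in dLGN controls (0.0638 to 0.153) and without 36_2 or 40_3 in dLGN embBE (0.0811 and 0.0687), with decreases of 1.02 to 1.69 on the log2 scale.

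**Figure D2:**
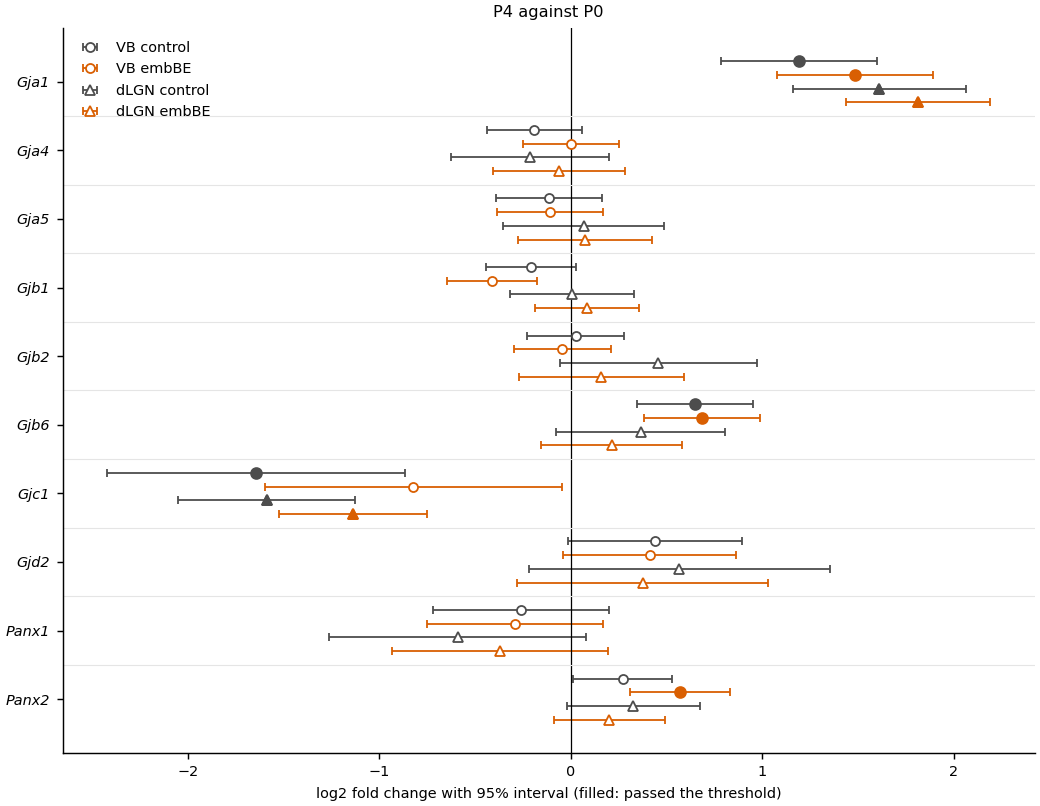
Log2 fold change from P0 to P4 with its 95% interval for the 10 genes, 1 symbol for each nucleus and treatment, filled where the adjusted p was under 0.05. Gja1 lies between 1.19 and 1.81 in all 4 groups, the brighter probe set of Gjc1 between -0.82 and -1.65, and Gjb6 at 0.65 and 0.69 in the VB.

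Panx2, a pannexin expressed in neurons, rose in the VB of embBE pups and had higher means at P4 in the other groups. Its log2 signal there was 6.17, 6.49 and 6.22 at P0 and 6.75, 6.83 and 7.0 at P4, a 1.48-fold increase without overlap (log2 0.57, SE 0.12, adjusted p = 0.0226, limma). In the other groups the differences were 0.27 in VB controls (SE 0.12, adjusted p = 0.243), 0.33 in dLGN controls (SE 0.16, adjusted p = 0.558) and 0.20 in dLGN embBE (SE 0.13, adjusted p = 0.659). The call was lost without 35_3, 39_4, 36_2 or 40_3 (adjusted p = 0.0747 to 0.115), and the difference between the age changes of embBE and control VB, 0.30 (SE 0.17, unadjusted p = 0.103), did not pass its test.

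Panx1, the widely expressed pannexin that releases ATP, was lower at P4 by 0.26 and 0.29 on the log2 scale in VB controls and embBE and by 0.59 and 0.37 in dLGN controls and embBE, and did not pass in any (SE 0.21 to 0.31, adjusted p = 0.526 to 0.681). Its lowest VB P0 value, 9.16, and its lowest VB P4 value, 9.07, were on the control arrays 35_1 and 36_3, those with the narrow SD and wide actin gap. With the actin gap as a covariate, an alternative chosen after seeing the data, the VB differences became -0.58 (adjusted p = 0.00393) in controls and -0.48 (adjusted p = 0.00607) in embBE. Gjd2, the neuronal connexin, had higher means at P4 in every group, by 0.44, 0.41, 0.57 and 0.38 in VB control, VB embBE, dLGN control and dLGN embBE, and did not pass either (SE 0.21 to 0.36, adjusted p = 0.277 to 0.744). In VB embBE its arrays did not overlap in age, with 10.09, 9.97 and 9.80 at P0 and 10.46, 10.35 and 10.29 at P4.

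Gjb1, the connexin of myelinating cells, stood at 5.30 to 5.38 in VB embBE pups at P4 and at 5.66 to 5.83 at P0, a difference of -0.41 (SE 0.11) that just missed the threshold (adjusted p = 0.0597, limma) and passed without either narrow VB control array (0.0308 without 35_1, 0.0454 without 36_3) or without 35_2 (0.0455). These are control arrays, so leaving them out changed only the pooled spread, and the embBE difference stayed at -0.41. In the other 3 groups Gjb1 differed by -0.21 to 0.08, and its second probe set gave -0.04 in VB embBE. Of 9 markers of the oligodendrocyte lineage, Olig2 alone passed the age test, and it rose in the VB by 0.68 in controls and 0.46 in embBE (SE 0.11 in both). The vascular connexins differed least: Gja4 differed by -0.21 to 0.00 and Gja5 by -0.11 to 0.07, with 95% intervals that lay between -0.62 and 0.49. Of 9 endothelial markers and 6 markers of mural cells, 0 passed the age test in any group.

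**Figure D3:**
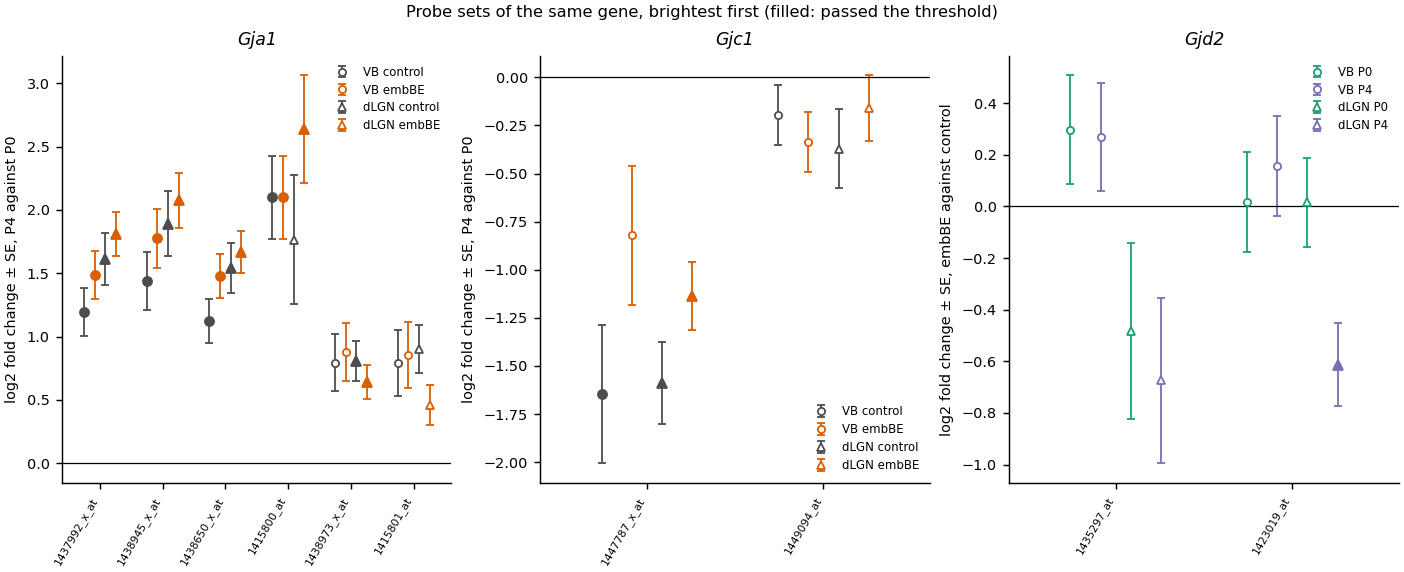
Log2 fold changes ± SE for every probe set of Gja1 and Gjc1 (P4 against P0) and of Gjd2 (embBE against control), the brightest on the left, filled where the threshold of that comparison was passed. The Gja1 probe sets all lie above 0, the Gjc1 pair differ in size, and both Gjd2 probe sets lie near -0.6 in the dLGN at P4.

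The embBE comparison asked whether the loss of retinal input changes these genes in the nucleus that loses it and in the nucleus beside it. With the threshold of the study, a fold change of 1.5 and an unadjusted p under 0.05, 0 of the 10 genes passed in the VB at P0, the VB at P4, the dLGN at P0 or the dLGN at P4, where 0.726%, 0.159%, 0.445% and 0.198% of all genes did. At an adjusted p under 0.05 in limma, 0 of the 18194 genes passed in the 4 comparisons, where 1219, 724, 433 and 236 had an unadjusted p under 0.05. Of the 10, 0 had an unadjusted p under 0.05 on the brightest probe set. The median log2 difference of the 10 genes was -0.04, 0.08, -0.08 and 0.02, and that of all genes -0.03, -0.02, 0.03 and 0.01.

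Gjd2 had the largest difference, in the dLGN at P4. On its brighter probe set (1435297_at) the controls were at 11.41, 10.62 and 10.06 and the embBE arrays at 10.27, 9.85 and 9.95, so that the ranges overlapped through 1 control array. The embBE mean was 1.60-fold lower (log2 -0.67, SE 0.32, 95% interval -1.38 to 0.03, unadjusted p = 0.0581, adjusted p = 1, limma). On the dimmer probe set (1423019_at) controls were at 8.28, 7.88 and 7.66 and embBE arrays at 7.24, 7.46 and 7.28, without overlap. There the log2 difference was -0.61 (SE 0.16) with an unadjusted p of 0.00244 in the limma fit over all probe sets, which passes the threshold of the study, and an adjusted p of 1; an exact permutation test of 3 against 3 arrays cannot go below 0.1. With the mean of both probe sets the difference was -0.64 (unadjusted p = 0.0121), and without control array 40_1 the brighter probe set gave -0.99 (unadjusted p = 0.00728). Leaving out the P0 embBE array 39_3 or 39_4, which changes only the pooled spread, also brought its unadjusted p under 0.05 (0.0462 and 0.0373). With arrays of the same first label number as a block, the brighter probe set stayed at -0.67 and passed the threshold of the study (unadjusted p = 0.0433, limma). The labels do not say what these numbers mark.

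The dimmer Gjd2 probe set was at 7.10 to 7.17 in dLGN controls at P0 and 6.94 to 7.28 in embBE, a difference of 0.02. The brighter probe set was at 10.30 and 9.96 in dLGN controls at P0 and at 9.67, 9.14, 10.24 and 9.53 in embBE, a log2 difference of -0.48 (SE 0.34, unadjusted p = 0.183). From P0 to P4 the dimmer probe set differed by 0.80 in dLGN controls (SE 0.18, adjusted p = 0.0814) and by 0.18 in dLGN embBE (SE 0.15, adjusted p = 0.779). The embBE effect at P4 minus that at P0 was -0.63 on the dimmer probe set (SE 0.23, unadjusted p = 0.0199, adjusted p = 1) and -0.19 on the brighter one (SE 0.47, unadjusted p = 0.691, adjusted p = 1). The 2 probe sets thus agreed in size at P4 and differed at P0. In the VB at P4 the brighter probe set ran the other way, with 10.40, 9.86 and 10.03 in controls and 10.46, 10.35 and 10.29 in embBE (0.27, SE 0.21, unadjusted p = 0.223). The embBE effect in the VB minus that in the dLGN at P4 was 0.94 (SE 0.41, unadjusted p = 0.0337, adjusted p = 0.977) on the brighter probe set and 0.77 (SE 0.26, unadjusted p = 0.00809, adjusted p = 0.979) on the dimmer one. That difference did not pass after adjustment, and 0% of all genes did. Neuronal markers on the dLGN P4 arrays were at a mean of 11.43 to 12.23 in controls and 11.60 to 12.07 in embBE. The dLGN control array 24_2, which has the highest Gjd2 of all 24, also has the smallest actin gap in the dLGN (2.21) and the widest SD there (2.41). The actin gap was used as a covariate, an alternative chosen after seeing the data. With it, the P4 difference in the dLGN on the brighter probe set still did not pass the threshold of the study. The part of the SD in the Gjd2 difference was not tested.

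**Figure D4:**
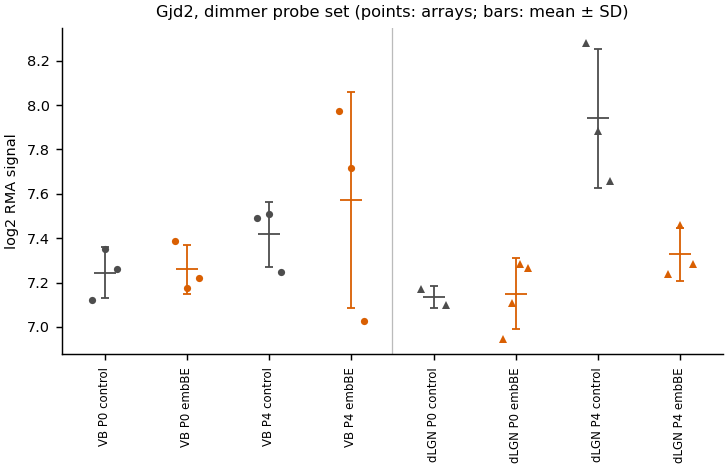
Log2 RMA signal of the dimmer Gjd2 probe set on each of the 24 arrays, with the mean ± SD of each group; grey is control, orange embBE, circles VB and triangles dLGN. At P4 the 3 dLGN control arrays (7.66 to 8.28) lie above the 3 dLGN embBE arrays (7.24 to 7.46).

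Gjc1 was next. In the dLGN at P4 its brighter probe set was higher in embBE by 0.37 (SE 0.19, 95% interval -0.05 to 0.78, unadjusted p = 0.0784) and the dimmer one by 0.22 (SE 0.18). In the VB at P0 the 2 probe sets pointed in opposite ways, -0.58 (SE 0.36, unadjusted p = 0.129) and 0.35 (SE 0.16, unadjusted p = 0.0438). In the VB at P4 the difference of 0.24 became 0.67 (unadjusted p = 0.0451) without control array 36_3, which at 10.30 was the highest of its group.

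Gjb2 in the dLGN at P0 was 0.38 higher in embBE (SE 0.22, unadjusted p = 0.12), with controls at 5.15 and 5.78 and embBE arrays at 5.98, 6.01, 5.40 and 5.97. Without control array 39_5 that difference was 0.69 (unadjusted p = 0.0244), against a single control. Gja1, in spite of its large change with age, differed by -0.25 and 0.04 in the VB at P0 and P4 and by -0.27 and -0.07 in the dLGN (SE 0.19 to 0.20), and the 95% intervals ran from -0.70 to 0.45. In the dLGN at P0, where 2 of the 10 astrocyte markers were lower in embBE by the threshold of the study, Mlc1 by 0.98 and Aldh1l1 by 0.75 on the log2 scale, the Gja1 probe set 1415800_at was at -0.90 (SE 0.48, unadjusted p = 0.0863).

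Of the other 6 genes, Panx1 had the largest difference, in the dLGN at P0. Panx1 differed by 0.09, 0.05, -0.37 and -0.15 in VB P0, VB P4, dLGN P0 and dLGN P4, and Panx2 by -0.14, 0.16, 0.25 and 0.13. Gja4, Gja5, Gjb1 and Gjb6 differed by -0.14 to 0.20 over the 4 comparisons. The widest 95% interval among these 6 was that of Panx1 in the dLGN at P0, -1.01 to 0.27. In the dLGN at P4 the vascular and meningeal markers Sox17 (0.66), Dcn (1.07) and Col1a2 (1.02) passed the threshold of the study in embBE, with embBE array 36_2 the highest in Dcn (8.19) and Col1a2 (9.20), while Gja4 and Gja5 differed by 0.03 and 0.18 there. The other meningeal markers, Lum (0.33), Col1a1 (0.30), Slc6a13 (0.15) and Aldh1a2 (-0.07), did not pass, and no mural marker did. Sox17 is 1 of 9 endothelial markers. The mean over those 9 overlapped there, at 6.35 to 6.68 in controls and 6.43 to 6.74 in embBE. Of all genes, 0.198% passed in that comparison.

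**Figure D5:**
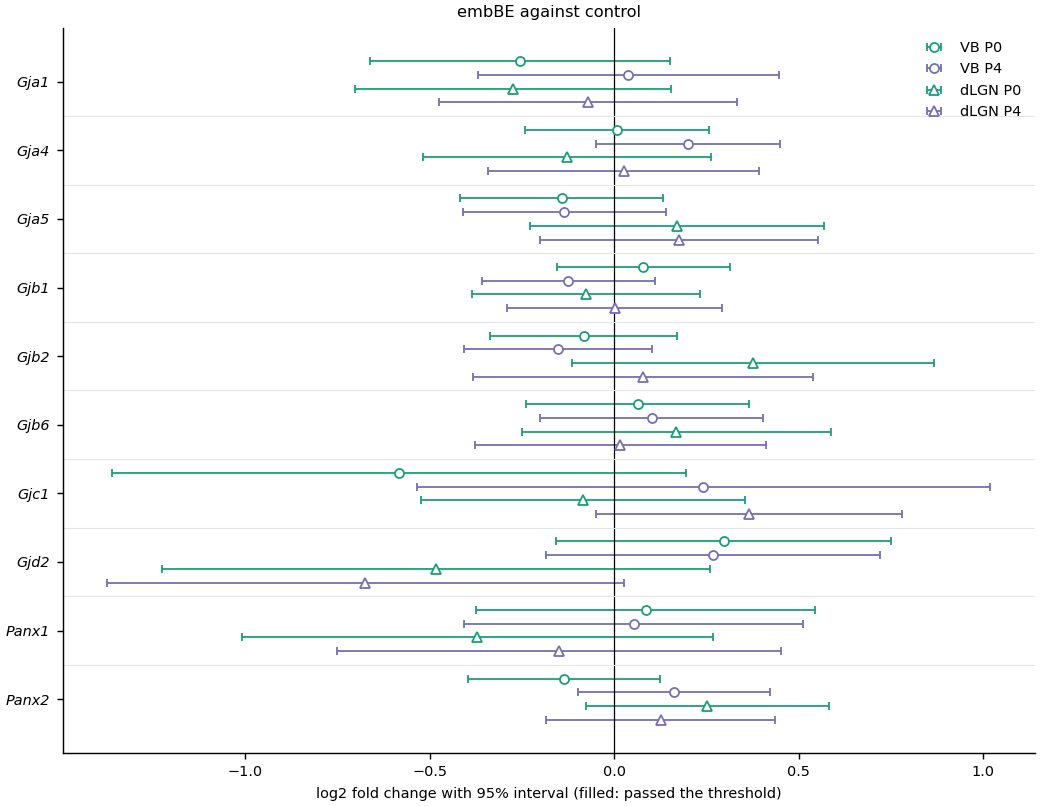
Log2 fold change of embBE against control with its 95% interval for the 10 genes in each nucleus and age, on the brightest probe set. All intervals include 0 and none passed the threshold; the farthest points are Gjd2 in the dLGN at P4 (-0.67) and Gjc1 in the VB at P0 (-0.58).

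The embBE effect at P4 was also set against that at P0, within each nucleus. In the VB and in the dLGN 0 of the 10 genes passed, as did 0% of all genes, and the largest values were Gjc1 in the VB (0.82, SE 0.51, unadjusted p = 0.129) and in the dLGN (0.45, SE 0.28, unadjusted p = 0.13). The effect in the VB minus that in the dLGN at P0 was passed by 0 of the 10 and 0% of all genes, with Gjd2 at 0.78 (SE 0.43, unadjusted p = 0.0831) and Panx2 at -0.39 (SE 0.19, unadjusted p = 0.051).

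Between the nuclei, Gja1 passed the test in embBE pups at P0, where it was higher in the VB. The embBE arrays of the VB (11.24 to 11.75) were all above those of the dLGN (10.49 to 11.06), a 1.66-fold difference (log2 0.73, SE 0.18, adjusted p = 0.0189, limma with arrays of the same label numbers as a random block). In controls at P0 the difference was of like size, 0.71 (SE 0.22, unadjusted p = 0.00386), and did not pass after adjustment (adjusted p = 0.137). It passed without VB array 35_2 (0.94, adjusted p = 0.0282) and with the actin gap as a covariate (0.82, adjusted p = 0.0151). At P4 it was 0.30 (SE 0.20, adjusted p = 0.551) in controls and 0.41 (SE 0.20, adjusted p = 0.145) in embBE, again with no overlap between the nuclei of a treatment. With the mean of all its probe sets, Gja1 passed in embBE at P4 (0.54, adjusted p = 0.0373). The change with age in the VB minus that in the dLGN, in controls, was -0.41 for Gja1 (SE 0.29, unadjusted p = 0.172) and passed for 0 of the 10 genes and 0.022% of all. The call at P0 was lost without the embBE array 39_3 of either nucleus or VB 39_4 (adjusted p = 0.0662 to 0.107). It was also lost under cyclic loess (0.60, adjusted p = 0.0601), and was kept with the actin gap as a covariate. Of the 10 astrocyte markers, 3 were higher in the VB in that comparison and 1 was lower, the water channel Aqp4 (log2 -2.82). In embBE pups the actin gaps of the VB and dLGN arrays did not overlap at P0 or P4. Nucleus and RNA length therefore cannot be told apart in these comparisons.

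Gjb1 was lower in the VB than in the dLGN of embBE pups at P4, with 5.30 to 5.38 against 5.74 to 5.89 (log2 -0.46, SE 0.12, adjusted p = 0.0198, limma), and was at -0.33 (SE 0.12, adjusted p = 0.157) in controls. The call was lost without 36_2 or 40_3 of either nucleus (adjusted p = 0.0569 to 0.0947). It was also lost under cyclic loess (-0.24, adjusted p = 0.0506) and with the mean of both probe sets (-0.25, adjusted p = 0.083). With the actin gap as a covariate the difference was -0.22 (adjusted p = 0.529), and the second probe set gave -0.04. Mbp, a myelin gene, was higher in the VB in the same comparison by 1.03 (SE 0.24) and Mag lower by 0.53. In all, 1 of the 10 genes was higher and 0 lower in embBE at P0, 0 higher and 1 lower in embBE at P4, and 0 in either direction in controls at P0 and P4. Among all genes, 3.53% were higher in the VB and 3.92% lower in embBE at P0, 4.33% and 4.11% in embBE at P4, 0.555% and 1.01% in controls at P0, and 1.73% and 1.48% in controls at P4. Gjc1 was lower in the VB by 0.92 on its brighter probe set in embBE at P0 (SE 0.29, adjusted p = 0.055), passed under cyclic loess (-1.08, adjusted p = 0.0448) and without any 1 of 6 arrays (0.0207 to 0.0498), and was 0.28 higher on the other probe set. Gjb6 in embBE at P4 was at 0.39 (SE 0.17, adjusted p = 0.11), and at 0.62 (adjusted p = 0.0268) without dLGN array 36_2. Panx2 in embBE at P0 was at -0.30 (SE 0.12, adjusted p = 0.115), and at -0.38 (adjusted p = 0.0297) without dLGN array 39_4. Gjd2 in controls at P4 was at -0.60 (SE 0.29, adjusted p = 0.394), and at -1.05 (adjusted p = 0.000563) with the actin gap as a covariate.

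Calls among other genes of the gap junction pathway are given beside the share of all genes in the same comparison. Of 13 other connexins and pannexin 3, 7 had a probe set of their own, all in the lower 28.1% of genes by mean signal, and 1 call was made among them over the 12 comparisons of age, nucleus and treatment: Gjd4, a connexin of muscle, lower in the VB of embBE pups at P4 by 0.53 (SE 0.16, adjusted p = 0.049, limma), where 4.11% of all genes were lower. Of 6 measured partners of connexins, Tjp1, the scaffold ZO-1 that binds the tail of Gja1, passed the threshold of the study in the VB at P0, where it was 0.63 higher in embBE (SE 0.23, unadjusted p = 0.0177, adjusted p = 0.679) and 0.726% of all genes passed. Both are single calls over 12 comparisons, and nothing is read from them. The 5 others passed in no comparison. The median log2 differences of the other connexins and pannexin 3 were -0.19 to 0.16 over the 12 comparisons, those of the partners -0.07 to 0.20, and those of all genes -0.09 to 0.04.

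ATP that leaves through pannexins acts on purinergic receptors, and 17 such receptors and enzymes of extracellular ATP were measured. P2ry12, the ADP receptor that marks microglia, rose with age in the VB by 0.65 in controls (SE 0.15, adjusted p = 0.0354) and by 1.36 in embBE (SE 0.15, adjusted p = 0.00085), and was higher in the VB than in the dLGN of embBE pups at P4 by 1.09 (SE 0.17). Entpd2, an enzyme that breaks down ATP, fell in the VB of embBE pups by 0.57 (SE 0.13, adjusted p = 0.0297) and was 0.79 lower there than in the dLGN at P4. Among all genes, 2.32% rose with age in VB controls, and 2.69% rose and 0.731% fell in VB embBE. Between the nuclei of embBE pups at P4, 4.33% were higher in the VB and 4.11% lower. The P2ry12 probe set was dim, ranking at 10.9% by mean signal. Of 5 microglial markers Tmem119 alone passed the age test, in VB controls (0.54, SE 0.13). In the embBE comparison 0 of the 17 passed in any nucleus or age. Their median log2 difference was -0.20 to 0.16 over the 12 comparisons.

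Some genes followed these 10 over the 24 arrays, which differ in age, nucleus and treatment, so that genes changing with age share a pattern. The 3 with the highest Pearson r to Gja1 were Hbegf (0.956), Ednrb (0.95) and Yaf2 (0.946), of which the endothelin receptor Ednrb is expressed by astrocytes. For Gjc1 they were Elf2 (0.956), Tmem130 (0.943) and Stau1 (0.939), for Gjd2 Caly (0.928), Coch (0.885) and Decr1 (0.885), and for Gjb6 S100a4 (0.871), Agmo (0.866) and Aldh1a1 (0.855). Panx1 went with Eif1a, Zik1 and Bcdin3d (0.938 to 0.952) and Panx2 with Impa1, Opcml and Hdac9 (0.786 to 0.82). For the dim genes the leaders were Lalba, 4930483J18Rik and Rhbdf2 with Gja5 (0.903 to 0.916), Flnc, Ggt5 and Tecta with Gjb1 (0.882 to 0.907) and 0610038B21Rik, Grpr and 4930505N22Rik with Gjb2 (0.841 to 0.867), and for Gja4 Slco1c1, Pus7 and Csnk1g2 (0.727 to 0.761), where Slco1c1 is a transporter of brain endothelium. Among the 10 themselves the highest r was that of Gja1 with Gjb6, 0.718.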

How the data were processed

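RNA from the VB and dLGN was amplified in 2 rounds and hybridized to Affymetrix mouse genome arrays. The authors normalized the arrays with RMA (the sources used here give no version) and deposited log2 values for 45101 probe sets; they used Partek and Matlab. Array numbers, not reads, limit the precision. Of the probe sets, 34958 have 1 listed gene symbol, 932 several and 9211 none; symbols of 34754 were updated through Entrez numbers. The highest mean signal chose 1 probe set for each of 18194 genes. limma 3.58.1 in R 4.3.3 fitted group means over the 12 arrays of a nucleus (embBE against control and P4 against P0), and over all 24 with arrays of the same label numbers as a random block (consensus correlation -0.0196) for VB against dLGN, with Benjamini-Hochberg adjustment over all genes. Named were the 10 genes, their other probe sets where they differed, called genes of the lists (up to 4, or 3 for markers, by size), and the 3 genes most like each. The members and lists were chosen with earlier results of these data known. Deviations of same-numbered VB and dLGN arrays from their group means had r of -0.552 to 0.718, with 3 of 11 above 0.1. Those of other numbers had r of -0.772 to 0.766. With groups of 2 to 4 arrays this cannot decide whether the numbers pair samples, and the labels do not say what they mark. Whether arrays come from separate litters is given only in part, and p-values measure the spread between these arrays. The fits were tested on simulated data. Alternatives were another choice of probe sets, no dim genes, cyclic loess, other fits and arrays left out. The actin gap covariate was chosen after seeing the data. Python 3.11.15 drew the figures.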

Additional observations from a re-analysis of the deposited data

Results flagged for a closer look

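In the 1 group of 4 arrays, dLGN P0 embBE, the Gjb2 signal of array 39_4 (5.40) lay far below the others (5.97, 5.98 and 6.01), with a gap of 0.934 of the whole range. The limit used for such a gap is passed by chance in about 1 of 20 groups, and 10 genes were looked at.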

How the results depend on the processing

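No call changed its direction under any alternative run. Gja1 kept its age calls in both VB groups and in dLGN embBE in all alternatives. The same-number replicate block gave 1 of the 10 genes in the embBE comparison of the dLGN at P4 (Gjd2, unadjusted p = 0.0433) against 0 without it and changed no other call, and dropping the random replicate block between nuclei changed none. That comparison also gave 1 gene, Gjd2, with the mean of probe sets, with every probe set tested, under cyclic loess (unadjusted p = 0.0154) and with all 24 arrays in the fit (0.0303), and 0 to 1 with arrays left out in turn. The embBE comparisons of the VB at P4 and the dLGN at P0 gave 0 to 1 with arrays left out, and the first gave 1 (Gjc1) without both narrow VB arrays. The count of age calls ran from 1 to 3 in VB controls, 1 to 4 in VB embBE, 0 to 2 in dLGN controls and 1 to 2 in dLGN embBE with arrays left out; in VB embBE it was 6 without both narrow arrays and 5 with the actin gap as a covariate. Between nuclei, arrays left out gave 0 to 1 in controls at P0, 0 to 3 in embBE at P0 and 0 to 1 in embBE at P4. Under cyclic loess the call in embBE at P0 was Gjc1 in place of Gja1, and that in embBE at P4 Gjb6 in place of Gjb1. With the mean of probe sets the call in embBE at P4 was Gja1 in place of Gjb1. The actin covariate gave 2 in controls at P0, 1 in controls at P4 and 0 in embBE at P4. Leaving out the dimmest genes (12129 remained, and Gja5, Gjb1, Gjb2 and Gjb6 were among those removed) gave 2 in embBE at P0. It gave 0 in embBE at P4, where the call was that of Gjb1, itself removed. Leaving out both narrow arrays gave 2 in embBE at P0. The narrow arrays are VB controls, so in comparisons of embBE pups their removal acts mainly through the pooled spread. The cause of the other changes was not tested. The trended and robust fit and the methods' t-test changed no call. The genes removed as dim sit where signal over background limits what can be seen.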
